A study of Homo sapiens with 2 samples.

Results

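The keratin and other intermediate filament genes of SF-539 cells, a human glioblastoma (GBM) line, are described here. Members were the protein-coding genes whose symbol is KRT followed by digits, without the keratin-associated proteins, together with VIM, NES, GFAP, DES, SYNM, NEFL, NEFM, NEFH, INA, PRPH, LMNA, LMNB1 and LMNB2. This gave 68 of 58735 genes in the table, 55 keratins and 13 others. The cells, labelled as epithelial glioma cells from brain and grown in DMEM with FBS, carried a pGIPZ lentivirus with a control shRNA (shControl) or with one that targets FKBP9, an endoplasmic reticulum protein (shFKBP9), and both were selected with puromycin as stable clones. The labels do not say whether 1 clone or a mixture was sequenced. Each condition had 1 library, so no difference between them has a replicate check and no test between conditions was made. The intervals given below cover counting error only.

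Intermediate filaments are rope-like polymers of coiled-coil proteins that give cells and nuclei mechanical strength. Keratins form obligate pairs of an acidic type I and a basic type II chain and mark epithelia, skin and hair, whereas the type III proteins vimentin, desmin, GFAP and peripherin can polymerise alone, and type IV holds the neurofilaments, nestin, internexin and synemin. Type V lamins build the mesh under the nuclear envelope. In brain, GFAP is the classical filament of astrocytes, nestin marks neural progenitors and neurofilaments fill axons, and vimentin is common to mesenchymal and cultured cells.

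The levels are FPKM, fragments scaled by gene length and library size, which allow genes to be compared per length. SF-539 cells expressed few filament genes at a high level. VIM and the 3 lamins stood far above the rest, KRT10 followed, and 6 further keratins and NES lay between 0.797 and 5.23 FPKM. Of the 68 members, 12 (17.6%) reached 1 FPKM in at least 1 library, compared with 51.9% of the 19951 protein-coding genes and 21.7% of all genes. A further 16 stayed under 1 FPKM with more than 3 fragments in a library, and 17 had at most 3 fragments in each library but not 0 in both. The remaining 23 had 0 fragments in both libraries, as had 22.8% of protein-coding genes and 53.2% of all genes. For these 23, the limit that a count of 0 allows (3 fragments) ranged from 0.0383 to 0.129 FPKM in shControl, while it was 0.0404 to 0.136 FPKM in the shFKBP9 library, and lower levels were not detectable at this depth. All members together held 64883 of 18116873 fragments in shControl (0.358%) and 61816 of 17158514 in shFKBP9 (0.360%). FKBP9 itself was at 49.8 FPKM in shControl and 4.68 FPKM in shFKBP9, a log2 ratio of -3.38.

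**Figure D1:**
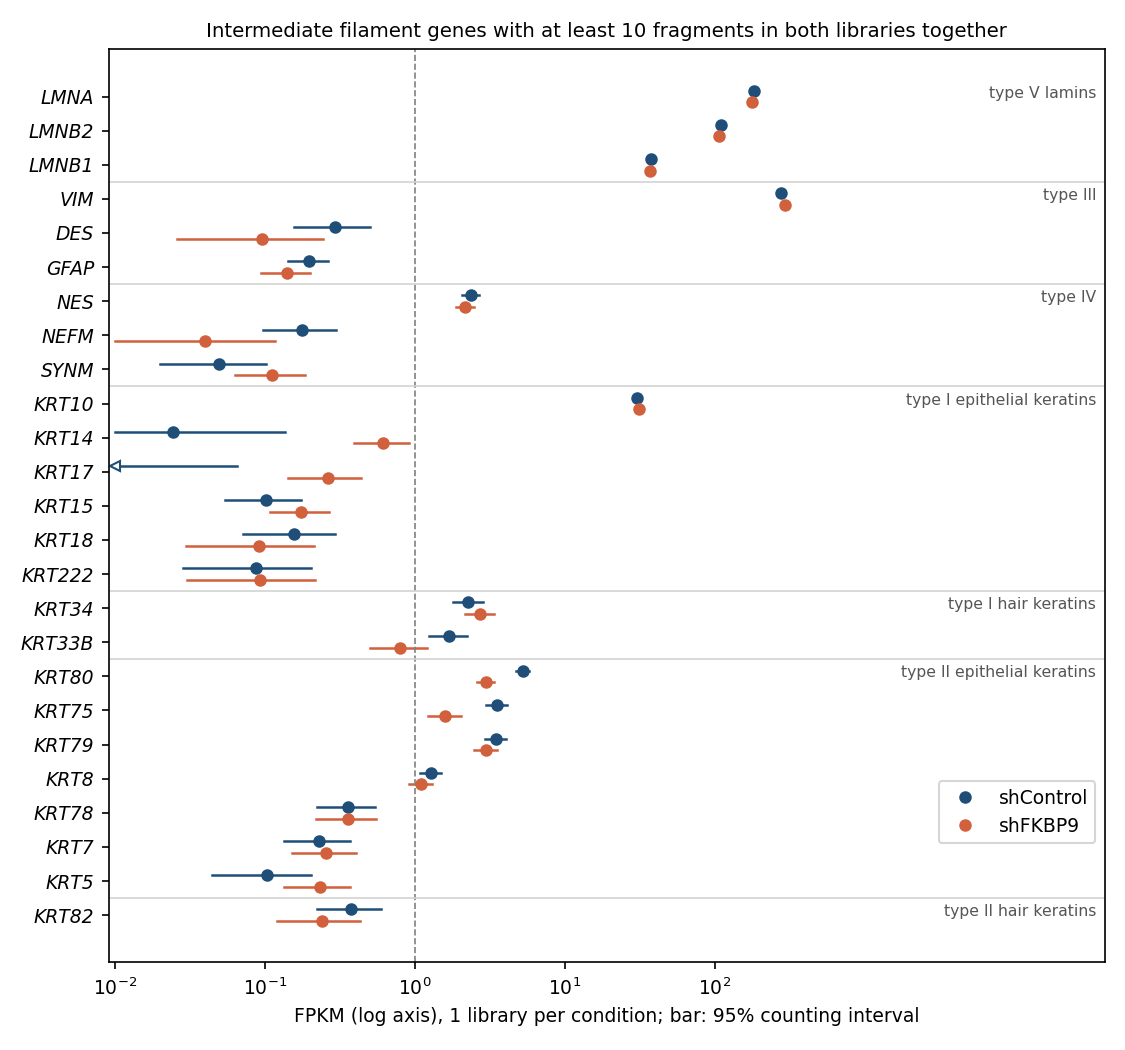
Level of the 25 members with at least 10 fragments in both libraries together, in FPKM on a log axis, by filament type. Dots are the shControl and shFKBP9 libraries, bars the exact 95% counting intervals, the open triangle a library with 0 fragments (KRT17 in shControl) and the dashed line 1 FPKM. VIM and the lamins lie between 36.9 and 295 FPKM in both libraries, and KRT14 and KRT17 are members under 1 FPKM whose bars do not overlap.

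The RefSeq promoters of the members (250 bases before the start to 50 after, GRCh38.p14) were searched on both strands for the TATA box core TATAAA, its variant ATAAAA, which overlaps the core in TATAAAA, and the GC box GGGCGG. A promoter was found for 42 members, 49 promoters in all, since some genes have more than 1. None was found for the other 26, among them DES, GFAP, NEFL, NEFM, NEFH, KRT80, KRT14, KRT16, KRT17 and KRT18. TATAAA or ATAAAA occurred in 29 of 38 keratin promoters (76.3%) against 21.1% of all 35116 promoters, and GGGCGG in 15.8% against 45.0%. Among the other members, 8 genes with a promoter, GGGCGG occurred in 9 of 11 promoters (81.8%) and TATAAA or ATAAAA in 18.2%, the latter near the share of all promoters. TATAAA or ATAAAA occurred in 5 of 6 promoters of keratins that reached 1 FPKM and in 24 of 32 of those that did not. A difference was not tested, and KRT80, which reached 1 FPKM, was not among the 6. The windows from 70 bases before the start to base 20 of the transcript are shown for 4 keratins of the results below and for VIM and NES, in order to contrast both kinds of promoter. KRT79 also had a match in this window, at 29 bases before its start, and KRT8 had none. The windows shown are chr17:40822595-40822684, chr17:41382287-41382376, chr17:41369794-41369883, chr12:52434352-52434441 and chr1:156677388-156677477, all on the minus strand, and chr10:17228171-17228260 on the plus strand. Sequences run 5′ to 3′ on the gene's strand, and capitals mark matches to these motifs, with CCGCCC being GGGCGG on the opposite strand.
KRT10: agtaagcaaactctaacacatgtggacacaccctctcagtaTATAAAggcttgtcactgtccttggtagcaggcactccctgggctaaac
KRT34: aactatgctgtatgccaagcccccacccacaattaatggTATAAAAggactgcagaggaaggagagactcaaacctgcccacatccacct
KRT33B: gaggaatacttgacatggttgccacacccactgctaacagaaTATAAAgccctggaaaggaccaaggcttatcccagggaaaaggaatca
KRT75: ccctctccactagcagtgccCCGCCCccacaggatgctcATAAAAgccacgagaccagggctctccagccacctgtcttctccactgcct
VIM: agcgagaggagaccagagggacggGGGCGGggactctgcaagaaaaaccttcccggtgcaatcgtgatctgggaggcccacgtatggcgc
NES: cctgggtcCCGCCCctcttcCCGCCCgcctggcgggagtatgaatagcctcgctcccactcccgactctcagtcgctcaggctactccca

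In the 4 keratin windows the TATA-like match began 28 to 31 bases before the start, at 29 in KRT10, 31 in KRT34, 28 in KRT33B and 31 in KRT75. VIM had a GC box 46 bases before its start, and NES had a pair on the opposite strand, at 50 and 62 bases. KRT75 also had a GC box on the opposite strand, at 50 bases. A match describes the letters and is not a site of binding.

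VIM, which encodes vimentin and lies on chromosome 10, was the most abundant filament gene, at 277 FPKM in shControl and 295 FPKM in shFKBP9 (25852 and 26122 fragments). Vimentin ranked 100th and 99th among 19951 protein-coding genes and made up 41.9% and 44.4% of the summed FPKM of the members. The log2 ratio of shFKBP9 over shControl, computed for single genes with 0.1 added to both FPKM and for sums of genes without it, was 0.09, with an interval from 0.07 to 0.12 (the interval is that of the fragment ratio, without the addition). The other type III genes stayed under 1 FPKM in both libraries. GFAP, the astrocyte filament, was at 0.196 and 0.139 FPKM (43 and 29 fragments), so that VIM exceeded it 1412-fold in shControl and 2115-fold in shFKBP9. DES, the filament of muscle, had 13 fragments in shControl and 4 in shFKBP9, with an interval of the log2 ratio from -3.70 to 0.07. PRPH, the peripherin of peripheral neurons, had 1 and 0 fragments. Without VIM, the summed log2 ratio of type III went from 0.09 to -1.10.

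The type IV genes were carried by NES, the progenitor filament nestin, at 2.36 FPKM in shControl and 2.17 FPKM in shFKBP9 (237 and 207 fragments). Its intervals overlapped and the log2 ratio was -0.11 (-0.39 to 0.16). VIM was 118 and 136 times as abundant as NES per length of gene in the table. SYNM, synemin, which joins vimentin or desmin filaments to the cell periphery, had 7 and 15 fragments, and its interval included 0 (-0.21 to 2.71). Of the neurofilament genes, NEFM, the medium chain, had 14 fragments in shControl but 3 in shFKBP9 (0.176 and 0.0399 FPKM, log2 ratio -0.98, interval -4.59 to -0.30), and an antisense gene over its locus had 8 and 4. NEFH had 1 fragment in each library, and NEFL and INA had 0 in both.

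All 3 lamin genes were abundant and differed little between the libraries. LMNA, which encodes lamins A and C, was at 183 FPKM in shControl and 177 FPKM in shFKBP9. LMNB2 was at 109.8 and 106.4 FPKM and LMNB1, the B-type lamin whose level often follows proliferation, at 37.5 and 36.9 FPKM. The log2 ratio was -0.05 for LMNA (-0.07 to -0.02), -0.05 for LMNB2 (-0.09 to -0.01) and -0.02 for LMNB1 (-0.11 to 0.06), beside a median of -0.02 over all genes with at least 1 FPKM in both libraries. Scaled to that median, LMNB2 was at -0.03 and its interval included 0. The balance of lamins was close in both libraries, with LMNA 4.88 and 4.80 times LMNB1 and 1.67 and 1.66 times LMNB2 by the gene length in the table. By the length of the canonical transcripts these ratios were 8.54 and 8.39 for LMNB1 and 3.13 and 3.12 for LMNB2. LMNB2 overlaps 257 bases of TIMM13 on the same strand, which had 1318 and 1152 fragments.

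Proteins that bind or process lamins were read from a list of 20 genes, of which 18 reached 1 FPKM. BANF1, which bridges chromatin and the envelope, was the highest at 217 and 201 FPKM, followed by the inner membrane protein EMD (1441 and 1386 fragments), the lamin A protease ZMPSTE24 (37.0 and 38.7 FPKM) and SUN2 (28.8 and 26.1 FPKM). None passed 2-fold, and of the 19 with at least 10 fragments 5 had an interval above 0 and 5 below, beside 16.7% and 20.3% of protein-coding genes. MLIP had 0 fragments in both libraries.

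**Figure D2:**
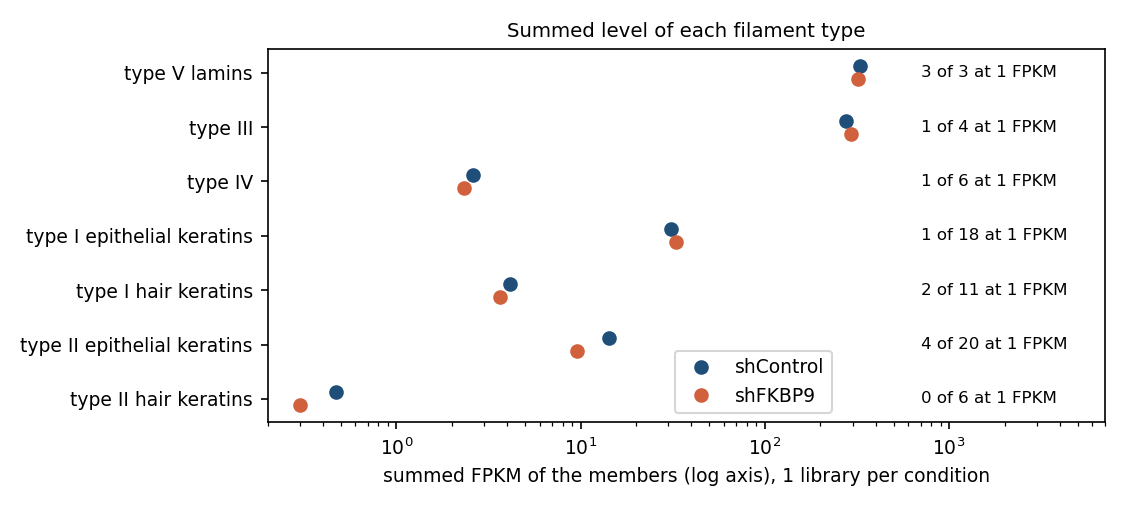
Summed FPKM of the members of each filament type on a log axis, 1 library per condition, with the number of members that reached 1 FPKM in at least 1 library at the right. Type V lamins and type III, the latter almost entirely VIM, lie at or above 277 FPKM, and every keratin class lies at or below 32.9 FPKM.

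The 55 keratins together summed to 49.6 FPKM in shControl, against 46.4 FPKM in shFKBP9, and type III exceeded this sum 5.59-fold and 6.36-fold by the gene length in the table. By the length of the canonical transcripts VIM was at 663 and 706, while KRT10 was at 30.3 and 31.4. KRT10, a type I keratin of the upper layers of skin, held 60.9% and 67.6% of the keratin sum in FPKM. It was at 30.2 and 31.4 FPKM (1174 and 1154 fragments), and the log2 ratio of 0.05 had an interval from -0.07 to 0.17. KRT10 overlaps 3490 bases of TMEM99 on the opposite strand, which was at 6.15 and 5.52 FPKM, and whether counting used strand is not given in the sources used here. Its usual type II partner KRT1 had 0 fragments in both libraries, as had KRT2, the late type II keratin of skin, and KRT9, the type I keratin of palm and sole. Over all type I keratins the sum was 34.9 and 36.5 FPKM, 2.37 and 3.68 times that of type II (14.7 and 9.91 FPKM). KRT10 alone held 86.6% and 85.9% of the type I sum. Without KRT10 all keratins summed to 19.4 and 15.1 FPKM, so type II then made up most of the sum.

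Among type II keratins, KRT80, KRT75, KRT79 and KRT8 reached 1 FPKM. KRT80, a keratin of many epithelia and the first gene of the chromosome 12 cluster, was at 5.23 FPKM in shControl and 2.96 FPKM in shFKBP9 (412 and 221 fragments). Its intervals did not overlap, and the log2 ratio was -0.80 (-1.06 to -0.58). KRT75, a keratin of the companion layer of the hair follicle, was at 3.49 and 1.58 FPKM (147 and 63 fragments), again without overlap. Its log2 ratio was -1.10 (-1.60 to -0.71), and by FPKM without the 0.1 added 45.2% of the shControl level remained. KRT79, expressed in the follicle opening and sebaceous gland, was at 3.45 and 2.98 FPKM, with a log2 ratio of -0.21 that included 0 (-0.56 to 0.13). KRT75 and KRT79 could not be ordered in shControl, where their intervals overlapped, whereas in shFKBP9 KRT79 lay above KRT75. The sum of type II epithelial keratins was 14.2 and 9.61 FPKM, a log2 ratio of -0.57, and -0.44 without KRT80.

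KRT8 and KRT18 form the keratin pair of simple epithelia. KRT8 was at 1.28 and 1.09 FPKM (159 and 129 fragments) and KRT18 at 0.154 and 0.0905 FPKM (9 and 5 fragments), so that the type II chain exceeded the type I chain 8.26-fold in shControl and 12.1-fold in shFKBP9, which rests on few KRT18 fragments. By the length of the canonical transcripts these ratios were 14.0 and 20.4. Both intervals of the log2 ratio included 0. Both genes have many pseudogenes, and KRT8 shared 7.12% of its windows of 100 bases with other genes whereas KRT18 shared 0%. The 50 genes named as pseudogenes of KRT8 held 244 and 190 fragments, and the highest of them, KRT8P12 on chromosome 3, had 175 and 142, more than KRT8 itself. The 67 pseudogenes of KRT18 held 43 and 34 fragments. Summed with its copies KRT8 had 403 and 319 fragments (log2 ratio -0.26, -0.48 to -0.04) and KRT18 had 52 and 39 (-0.34, -0.98 to 0.29). KRT8 and KRT18 also overlap on opposite strands by 1084 bases. The further keratins of simple epithelia were low, with 17 and 18 fragments for KRT7, 4 and 2 for KRT19 and 2 and 0 for KRT20.

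Hair keratins build the hardened shaft of hair, and 2 of the 17, KRT34 and KRT33B, reached 1 FPKM. They are neighbours, at places 14 and 15 of the 28 keratins on chromosome 17, and both are type I chains of the hair cortex. KRT34 was at 2.27 FPKM in shControl and 2.69 FPKM in shFKBP9 (72 and 81 fragments), whereas KRT33B was at 1.68 and 0.797 FPKM (49 and 22 fragments). The log2 ratio was 0.24 for KRT34 (-0.23 to 0.73) and -0.99 for KRT33B (-1.87 to -0.33), and these intervals did not overlap. The level of KRT34 over KRT33B was 1.35 in shControl and 3.38 in shFKBP9. KRT34 shared 0.911% of its windows of 100 bases with KRT33B, and KRT33B shared 5.54% of its own with other genes, chiefly KRT33A (4.09%), which had 0 fragments. KRT82, a type II keratin of the hair cuticle, had 18 and 11 fragments, and no other type II hair keratin exceeded 3 fragments. Of 94 keratin-associated protein genes, which encode the matrix around hair keratins, 0 reached 1 FPKM and 85 had 0 fragments in both libraries.

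**Figure D3:**
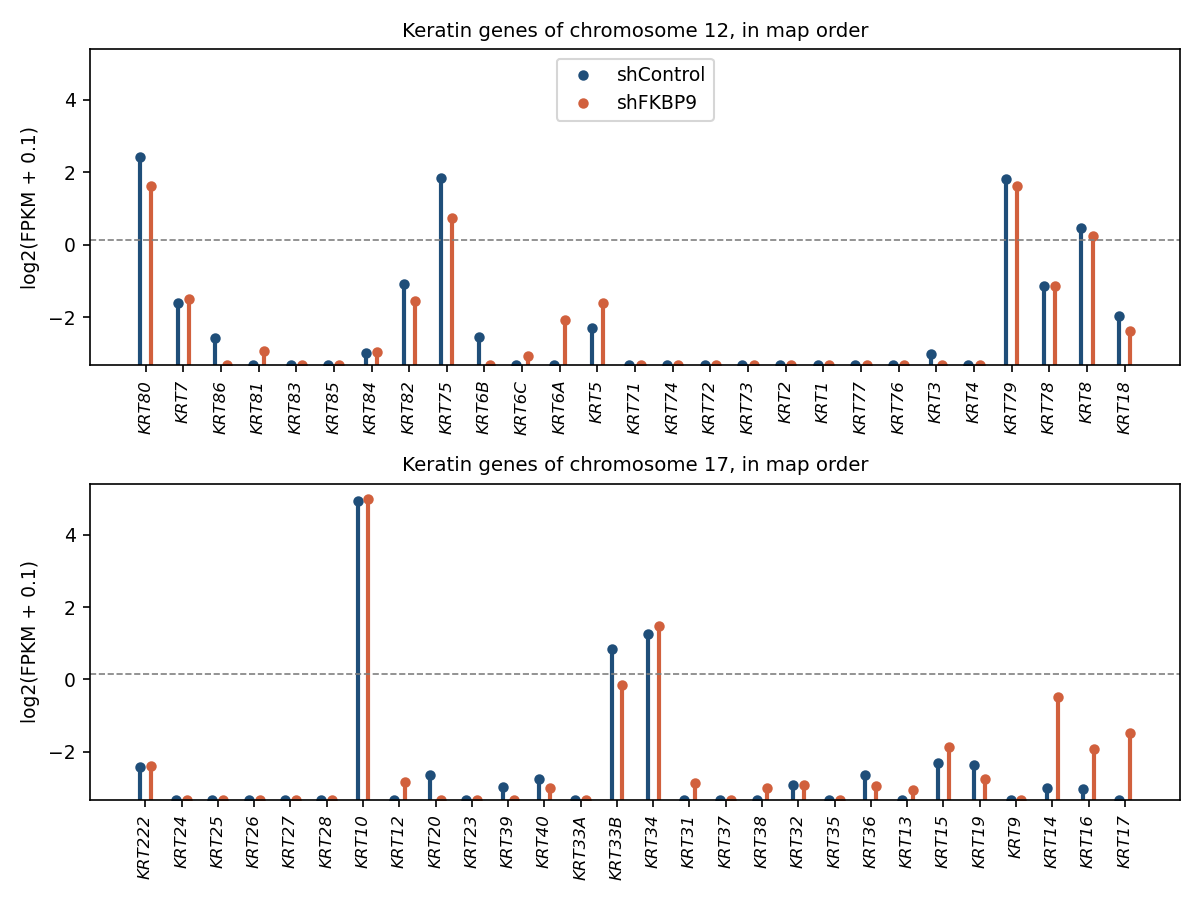
Level of each keratin in log2(FPKM + 0.1), in map order along chromosome 12 (27 genes) and chromosome 17 (28 genes), with 1 line for shControl and 1 for shFKBP9 and a dashed line at 1 FPKM. KRT10 is the highest at 30.2 and 31.4 FPKM, and the genes without a visible line had 0 fragments.

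All keratins lie in 2 clusters, 27 genes over 0.784 Mb of chromosome 12 (26 type II genes and KRT18) and 28 type I genes over 0.970 Mb of chromosome 17. In the first, 4 genes reached 1 FPKM and 11 had 0 fragments, and in the second these were 3 and 10. KRT10 lies between KRT28 (0 fragments in both libraries) and KRT12 (0 and 2), whereas KRT80 lies beside KRT7 (17 and 18), KRT75 between KRT82 (18 and 11) and KRT6B (3 and 0), and KRT8 between KRT78 (21 and 20) and KRT18 (9 and 5). The 21 keratins at 0 in both libraries were KRT1, KRT2, KRT4, KRT9, KRT23 to KRT28, KRT33A, KRT35, KRT37, KRT71 to KRT74, KRT76, KRT77, KRT83 and KRT85. The 17 members with at most 3 fragments in each library but not 0 in both were PRPH, NEFH, KRT3, KRT6B, KRT6C, KRT12, KRT13, KRT20, KRT31, KRT32, KRT36, KRT38 to KRT40, KRT81, KRT84 and KRT86. KRT78, a type II keratin, had 21 and 20 fragments, and KRT222 had 5 in each library.

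The keratins of basal and activated skin stayed under 1 FPKM. KRT14, the type I chain of basal keratinocytes, had 1 fragment in shControl and 24 in shFKBP9 (0.0242 and 0.613 FPKM). Without the 0.1 added this is a ratio of 25.3, which rests on 1 fragment in shControl, with an interval from 4.13 to 1041. KRT17 had 0 and 14 fragments, 4.92-fold higher with 3 fragments put in place of 0 and with an exact lower limit of 3.50-fold from counting error, and KRT16 had 1 and 7, a ratio of 7.38 with an interval from 0.948 to 333. With 0.1 added to FPKM the log2 ratio was 2.52 for KRT14, 1.85 for KRT17 and 1.11 for KRT16. These 3 genes occupy the last places of the chromosome 17 cluster, 26 to 28. KRT5, the type II partner of KRT14, had 8 and 17 fragments, and KRT15, another type I chain of basal cells, had 13 and 21, and both intervals of the log2 ratio included 0 (-0.13 to 2.58 and -0.30 to 1.89). Of the keratins under 1 FPKM in both libraries KRT14 was the highest in shFKBP9, while KRT8 in the same library, at 1.09 FPKM, was just over 1 FPKM. By the length of the canonical transcripts KRT14 was at 0.854 and KRT8 at 4.21 in shFKBP9.

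Reads of these genes can be split among near-identical copies. KRT14 shared 6.05% of its windows of 100 bases with other genes, of which 3.84% with KRT16, KRT16 shared 7.12%, and KRT17 shared 0.353% of its own with any gene. The 8 genes named as pseudogenes of KRT17 and the 6 of KRT16 had 0. KRT6A, with 0 and 7 fragments, was 2.46-fold higher with 3 fragments put in place of 0 (exact lower limit 1.52-fold), but shared 18.2% of its windows, mostly with KRT6C and KRT6B. Summed over KRT6A, KRT6B and KRT6C the libraries had 3 and 8 fragments, and the interval included 0 (-0.57 to 4.04). In bulk RNA, a change in the number of cells of a kind and in RNA per cell cannot be told apart.

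Markers of keratinocytes were read beside these genes. Of 21 markers, S100A2 (41.2 and 36.7 FPKM) and PERP (7.63 and 7.54 FPKM) were above 1 FPKM in both libraries. The other 19 had 159 and 139 fragments together, a summed level of 1.06 FPKM in shControl and 1.38 FPKM in shFKBP9, and 8 of them, IVL and DSC3 included, were at 0 in both. TP63, the regulator of basal keratinocytes, had 6 fragments in each library, SFN had 2 and 8 and DSG3 had 0 and 3, whereas PKP1 had 10 and 3, TGM1 18 and 12, FLG 84 and 71 and LAMA3 26 and 23. Of the 7 of these 19 with at least 10 fragments, all had an interval that included 0. The part of other cells in the keratin values was not tested.

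The order of levels was the same for the first 5 members in both libraries, VIM, LMNA, LMNB2, LMNB1 and KRT10, each apart from the next by more than its counting interval. In shControl, KRT80 followed, then KRT75 and KRT79 together, and NES, KRT34, KRT33B and KRT8 could not each be separated from the next. In shFKBP9 none of KRT79, KRT80, KRT34, NES, KRT75, KRT8 and KRT33B was separated from its neighbour in the order.

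Compared between the libraries, 0 of the 12 members with at least 1 FPKM were past 2-fold higher in shFKBP9 and 1, KRT75, was past 2-fold lower. Of all genes with at least 1 FPKM, 2.02% were past 2-fold higher and 2.19% lower, and of protein-coding genes 0.213% and 0.193%. KRT33B, at -0.99, lay just inside that limit, and KRT75 at -0.80 with 1 in place of 0.1 added. The median log2 ratio of the 12 was -0.08 beside -0.02 for all genes with at least 1 FPKM in a library. Among the 25 members with at least 10 fragments, 3 had an interval above 0 (VIM, KRT14 and KRT17), 6 below 0 (LMNA, LMNB2, KRT80, KRT75, KRT33B and NEFM), and 16 included 0. Over protein-coding genes with at least 10 fragments these shares were 16.7% above and 20.3% below (13.8% and 16.9% over all genes), so the count above 0 was no higher than the background and that below 0 was near it. The members with the smallest counts had the widest intervals.

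**Figure D4:**
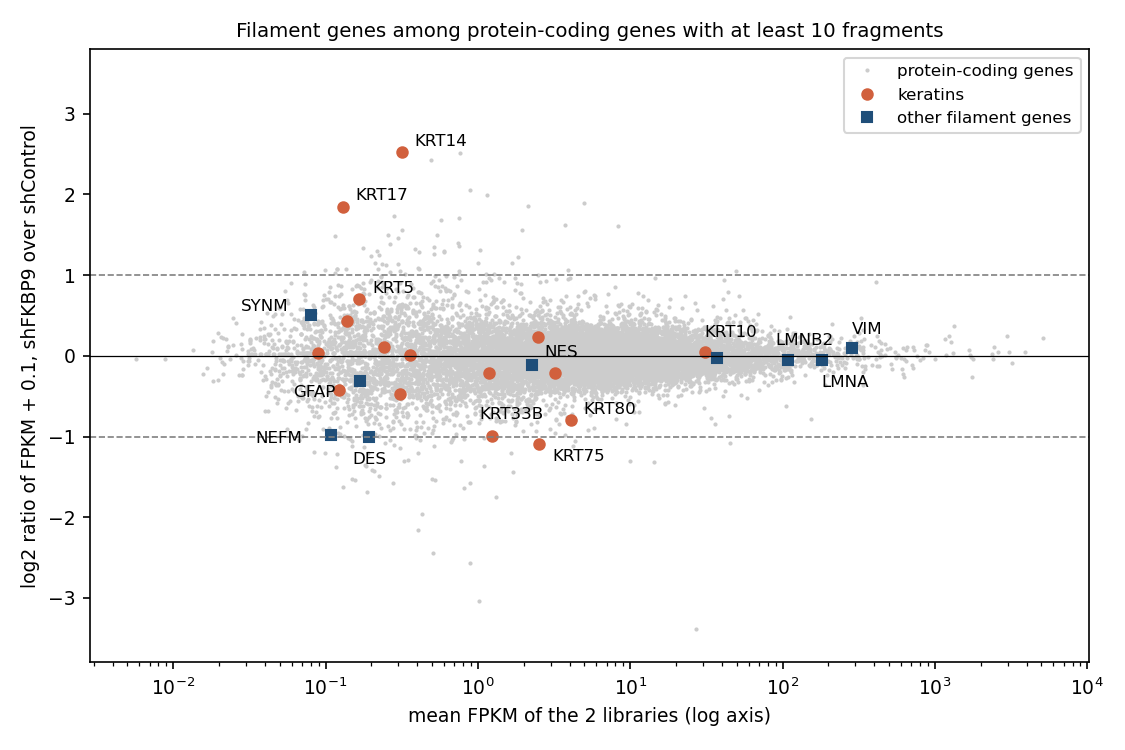
Log2 ratio of shFKBP9 over shControl (0.1 added to FPKM) against the mean FPKM of both libraries on a log axis, for protein-coding genes with at least 10 fragments (grey), keratins (orange) and other filament genes (blue), with dashed lines at 2-fold. VIM, the lamins and KRT10 lie between -0.05 and 0.09, and KRT80, KRT75 and KRT33B lie between -0.80 and -1.10.

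The proteins that anchor filaments were present in part. Of 12 plakins and linkers, 5 reached 1 FPKM. PLEC, the plakin plectin that ties vimentin and keratin to other structures, was at 80.4 and 69.5 FPKM (log2 ratio -0.21, -0.24 to -0.18). SYNC, syncoilin, was at 9.87 and 13.5 FPKM (0.45, 0.30 to 0.60), and the large linkers MACF1 (9.07 and 10.3 FPKM) and DST (7.84 and 8.36 FPKM) followed. Of 12 desmosome proteins, to which keratins attach at cell junctions, DSG2 (10.9 and 9.84 FPKM), PKP4 (6.87 and 6.12 FPKM) and PKP3 (3.50 and 2.48 FPKM) reached 1 FPKM. Of the 5 with at least 10 fragments these 3 had an interval below 0, as had 20.3% of protein-coding genes, and 2 included 0. DSP, desmoplakin, the plakin that carries keratin at desmosomes, had 3 and 4 fragments, and JUP had 10 and 17. DSC1, DSC3, DSG1 and PKP2 had 0 in both libraries.

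The label of epithelial cells was read against markers. Of 18 epithelial markers 0 reached 1 FPKM, with a summed level of 2.07 and 2.08 FPKM. CDH1, the epithelial cadherin, had 0 and 1 fragments, and EPCAM had 11 and 14. Of 16 mesenchymal markers, 13 reached 1 FPKM, led by COL1A1 (837 and 884 FPKM), COL1A2 (449 and 496 FPKM) and FN1 (305 and 307 FPKM), with S100A4 (95.7 and 86.4 FPKM) in the next place in shControl and SNAI2 (87.6 and 92.9 FPKM) in shFKBP9. Of the 15 with at least 10 fragments, 8 had an interval above 0, as VIM had, and 2 below, beside 16.7% and 20.3% of protein-coding genes, and their part in the level of VIM was not tested. Of 16 astrocyte and glial markers, 4 reached 1 FPKM, GJA1 (345 and 340 FPKM), GLUL (24.1 and 25.1 FPKM), SLC1A3 (8.60 and 9.14 FPKM) and SOX9 (4.51 and 2.93 FPKM), while AQP4 and OLIG1 had 0 fragments. Of 11 neuron markers, SNAP25 (4.98 and 5.76 FPKM) and GAP43 (1.53 and 2.20 FPKM) reached it, and of 10 blood and plasma cell markers only SDC1 (43.2 and 47.3 FPKM), which epithelial and mesenchymal cells also express. None of the 18 epithelial markers was above 1 FPKM in either library. The junction genes DSG2 and PKP3 and the keratins KRT10, KRT80 and KRT8, which epithelia also express, were above 1 FPKM in both. Whether the epithelial label holds was not tested. No gene of any of these lists passed 2-fold at 1 FPKM.

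**Figure D5:**
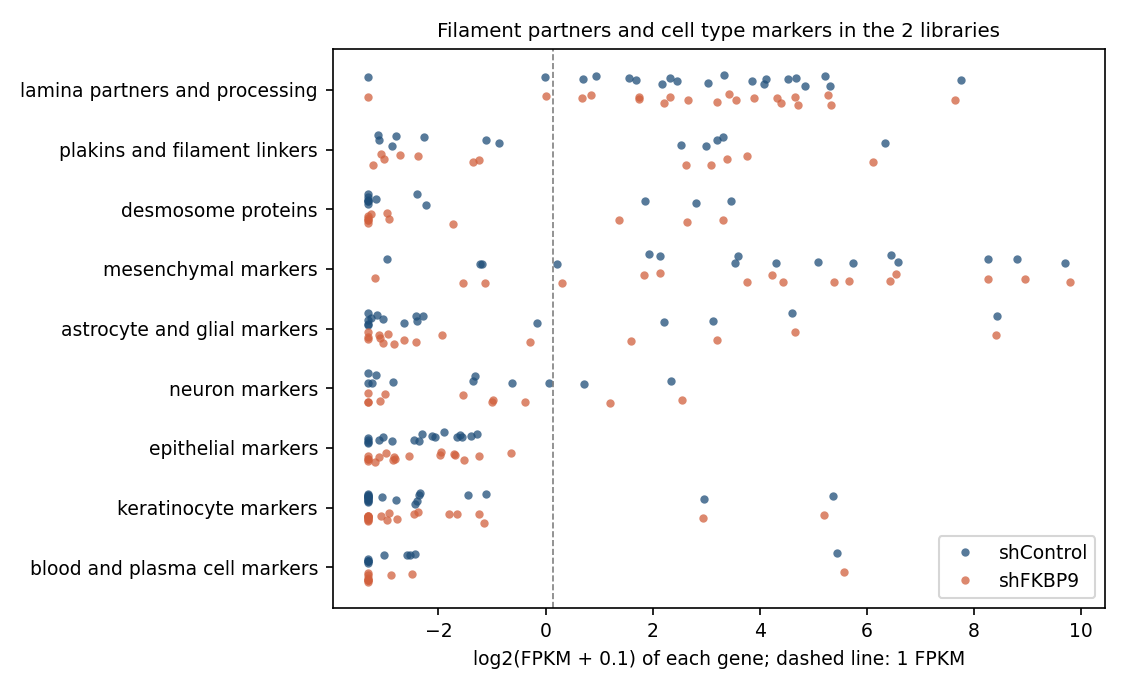
Level of each gene of the partner and marker lists in log2(FPKM + 0.1), with 1 dot per gene in shControl and 1 in shFKBP9 and a dashed line at 1 FPKM. Of the lamina partners 18 of 20 and of the mesenchymal markers 13 of 16 lie beyond the line, against 0 of 18 epithelial markers and 2 of 21 keratinocyte markers.

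The gene length in the table enters every level. VIM was scaled by 5158 bases, LMNA by 6985, KRT8 by 6881 and GFAP by 12110, whereas their canonical transcripts in GENCODE release 44 hold 2154, 3178, 1784 and 5501 bases. Rescaled to the canonical transcripts, an alternative chosen after seeing the data, the same 12 members reached 1 and the first 5 kept their order. KRT8 went from 1.28 and 1.09 to 4.92 and 4.21, which placed it at rank 7 in shControl and rank 6 in shFKBP9, above KRT75, NES, KRT34 and KRT33B. VIM then exceeded NES 282-fold and 326-fold, and KRT10 21.9-fold and 22.5-fold. The fragment ratios and their intervals do not depend on the length, while the log2 ratios with 0.1 added do so where levels are low.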

How the data were processed

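RNA of SF-539 cells with shControl or shFKBP9 was extracted with TRIzol, made into libraries with an NEBNext Ultra kit and sequenced, 1 library per condition. Per the submitters' processing notes and the methods of the study, paired-end reads were mapped by the authors to the hg38 build with HISAT2 2.0.5, counted them with featureCounts 1.5.0-p3 and used edgeR for differential expression, and the authors deposited FPKM per gene with gene length, position and biotype. The annotation release and the strand setting are not given in the sources used here. There were 0 further columns of values.

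Fragments were recovered as FPKM times length over the smallest step of a library, and 100% of values were whole within 0.01. The depth was 18116873 (shControl) and 17158514 (shFKBP9) fragments on genes, and 1 fragment on 1 kilobase was 0.0552 and 0.0582 FPKM. Log2 ratios of single genes had 0.1 added to FPKM, while those of sums over types or copies had nothing added. A member was called at 1 FPKM and 2-fold, and near zero at 3 fragments or fewer. Intervals are exact (Clopper-Pearson, 95%) and cover counting error only. Overlaps between genes were read from the deposited positions. Windows of 100 bases shared between genes were taken from canonical transcripts of GENCODE release 44, and promoters from RefSeq. Recovery and intervals were run on simulated counts made with the same steps and lengths and with counting error only. Such counts cannot show spread between libraries or test the recovery on other data. Scripts ran in Python 3.11.15 (scipy 1.17.1 for intervals, pandas 2.3.3 and numpy 2.4.6 for tables, matplotlib 3.10.9 for plots).

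Named genes are FKBP9, all members, the 4 highest genes of each list in either library and pseudogenes of members. Genes of the lists named beyond these 4 (MLIP, PKP1, LAMA3, DSP, DSC1, DSC3, DSG1, PKP2, IVL, TP63, DSG3, CDH1, AQP4 and OLIG1), overlapping genes and the keratin-associated proteins lie outside that rule and were picked with their values in view. Members and lists were chosen with earlier results of these data known. Alternatives fixed at the outset were an addition of 1 or 0.01, scaling by the median ratio, TPM, other minima, pseudogene sums and type sums without the highest gene. Scaling by canonical transcript length was added after the data were seen.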

Additional observations from a re-analysis of the deposited data

How the results depend on the processing

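With 1 library per condition, counting error is the only error that could be given, and spread between cultures is unknown. No paired analysis was possible because each condition has 1 library. The count past 2-fold higher was 0 and became 4 with no minimum, while the count past 2-fold lower was 1 and became 0 with 1 added to FPKM, and 2 with 0.01 added, with TPM and with no minimum. The count with an interval above 0 was 3 and became 1 with at least 50 fragments, since KRT14 and KRT17 have fewer, and that below 0 was 6 and became 5 with that minimum or with median scaling. Members at 1 FPKM were 12, 13 at 0.5 FPKM, 16 at 1 TPM and again 12 with the canonical transcript length, which moved VIM over NES to 282 in shControl. Without the highest gene, the log2 ratio of the summed FPKM went from 0.09 to 1.47 for type I epithelial keratins, from -0.18 to -0.96 for type I hair keratins, from 0.09 to -1.10 for type III and from -0.15 to -0.53 for type IV. Of 102 alternative values of the 25 named members, 3 left the counting interval, all with 1 added (KRT14 0.66, KRT17 0.33 and NEFM -0.18), and 1 changed sign (KRT78 with TPM, -0.01).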
